A study of Rattus norvegicus with 6 samples.

Results

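KU55933, a small-molecule inhibitor of the DNA damage kinase Atm, was added to rat lenses that had already been exposed to galactose, and their RNA was compared with that of lenses left in galactose alone. The comparison rests on 4 of the 6 arrays of the series, namely 1 array with KU55933 and 3 arrays of the Galactose group. Of 36685 probe sets, 19086 were linked to a gene and 5784 of these had a log2 signal of at least 5 on at least 1 array. The 5587 with a single gene symbol covered 5478 genes, and a gene with several probe sets was represented by the one with the highest mean over the 6 arrays. For every gene the KU55933 value was placed above, below or within the range spanned by the 3 Galactose arrays.

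The lenses came from 6-week-old male Sprague-Dawley rats, an outbred strain with no genetic modification, and were kept as whole organs in medium with bovine serum albumin. Galactose lenses were kept for 6 days with 30 mM galactose. KU55933 lenses had the same 6 days of galactose, with 20 µM KU55933 during the last 3 days. Both groups received DMSO, 16 µL per lens, as the vehicle. Of the other arrays, AZD0156 had a different Atm inhibitor at 20 µM on the same schedule, and the Control had no galactose. For the Control the methods name sterile water, and its culture time is given as 6 days in the methods and as 4 days in the scheme. How many lenses went into each array could not be learned from the labels or the methods, and nothing says that the Galactose arrays came from separate animals, so the spread between them may be technical.

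The lens has a single layer of epithelium on its front surface, and below it elongated fibre cells filled with crystallins. In the sugar cataract model, galactose is reduced by aldose reductase to galactitol, which draws water into the fibres. Proteins that fail to fold in the endoplasmic reticulum (ER) activate the unfolded protein response, which raises chaperones and the machinery that removes misfolded proteins. Through the kinase PERK this joins the integrated stress response, in which the factor ATF4 turns on genes for amino acid supply and, with the factor encoded by Ddit3, for cell death. Atm signals DNA double-strand breaks to the cell cycle and repair machinery.

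The level of Atm itself could not be followed, since the highest log2 signal of its probe set on any array was 3.12, below the limit for testing. This says nothing of the kinase activity, which was not measured on the arrays. Plk3, a stress kinase acting downstream of Atm, had log2 signals of 5.06, 5.57 and 5.51 on the Galactose arrays and 4.89 with KU55933, so that it lay below all 3 by 0.17.

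Lens identity was plain from the fibre markers. With KU55933 the log2 signal was 13.17 for the crystallin Cryab, 12.71 for Crygs, 11.90 for Lim2 and 11.30 for the water channel Mip. All 6 fibre markers with a probe set lay above all 3 Galactose arrays, by at most 0.25. Over all genes 30.0% lay above and 17.7% below. The gap was only 0.02 for Cryab, 0.007 for Crygs and 0.002 for Gja3. After each array was centred on its median, 0 of 11 crystallins, Cryab and Crygs among them, lay above. With KU55933 the 6 epithelium markers had log2 signals from 4.28 (Foxe3) to 9.27 (Pdpn), and 3 of them (Cdh1, Pdpn and Foxe3) lay below all 3 Galactose arrays and 0 above. Foxe3 (4.28 against 4.48 to 5.05) and Aqp1 (4.66 within 4.52 to 4.85) were dim, and Pdpn had 9.27 against 9.42 to 9.91. Galactose replicate 1 was low for several of them. Gja1, a gap junction protein, had log2 signals of 5.68, 7.88 and 7.57 on Galactose replicates 1, 2 and 3 and 6.73 with KU55933. Cdh1, the E-cadherin of epithelial junctions, had 7.03, 8.38 and 8.62 against 6.87, and Pax6, the eye transcription factor, had 6.57, 7.87 and 7.85 against 7.39. For Gja1 and Pax6 the KU55933 value lay between replicate 1 and the other 2 Galactose arrays, and for Cdh1 it lay 0.16 below replicate 1. Fewer cells of a type and less RNA per cell cannot be told apart in RNA of whole lenses. Markers of other tissues stayed low. Of 11 markers of smooth muscle, iris and ciliary body, only Des was tested (3.96 with KU55933, 3.66 to 4.18 in Galactose), and the summed linear signal of the 11 was 93.1 with KU55933 and 77.3 to 93.8 in Galactose. The highest log2 signal with KU55933 was 3.96 among 16 immune markers, 3.35 among 9 endothelial markers, 3.48 among 11 retinal markers and 2.24 among 2 blood markers, and 0 of these were tested. The summed linear signals in Galactose and with KU55933 were 137.2 to 197.6 and 127.0 for the immune markers, 59.6 to 64.7 and 62.4 for endothelium, 76.3 to 85.4 and 80.0 for retina, and 6.6 to 8.1 and 6.7 for blood.

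The distances of the KU55933 array from the Galactose arrays lay between the smallest and the largest distance among the Galactose arrays themselves. Over the 5784 probe sets the root mean square log2 difference of KU55933 was 0.337 from Galactose replicate 1, 0.424 from replicate 2 and 0.401 from replicate 3. Among the Galactose arrays it was 0.443 between replicates 1 and 2, 0.463 between 1 and 3, and 0.306 between 2 and 3. Replicate 1 therefore stood apart from the other 2 Galactose arrays by more than KU55933 stood apart from it. The median signal was 5.79 with KU55933 and 5.69, 5.75 and 5.81 on the Galactose arrays, and the median difference from the Galactose mean was 0.05.

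KU55933 lay above all 3 Galactose arrays for 1730 probe sets (29.9%) and below all 3 for 1023 (17.7%), and within the range for 3031. By gene the counts were 1641 above (30.0%), 967 below (17.7%) and 2870 within. After each array was centred on its own median, 1410 probe sets (24.4%) were above and 1334 (23.1%) below, so the excess of higher over lower positions depended on the scale. Most departures were small. The median gap between KU55933 and the nearest Galactose array was 0.14 above the range and -0.11 below it, while the median range of the Galactose arrays was 0.39. A gap of at least 0.5, or 1.41-fold, was found above the range for 82 probe sets (1.42%) and below it for 43 (0.743%). By gene these were 78 (1.42%) and 40 (0.730%).

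No probe set passed limma at an adjusted p under 0.05 in either direction (0 and 0 of 5784, or 0%), and the lowest adjusted p was 0.992. In that fit the spread came from the 3 Galactose arrays alone, and the lone KU55933 array was assumed to vary like them, which gave a median standard error of 0.257 and a median 95% interval of ±0.608 on the log2 scale. At an unadjusted p under 0.05 there were 133 probe sets higher (2.30%) and 67 lower (1.16%), and by gene 126 (2.30%) and 61 (1.11%). Without Galactose replicate 1, limma called 218 probe sets higher and 221 lower, whereas it called 0 and 0 without replicate 2 or replicate 3. The counts and differences below are thus descriptions of these arrays, and the 95% intervals given for single genes come from this fit and are not adjusted for the number of genes.

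**Figure D1:**
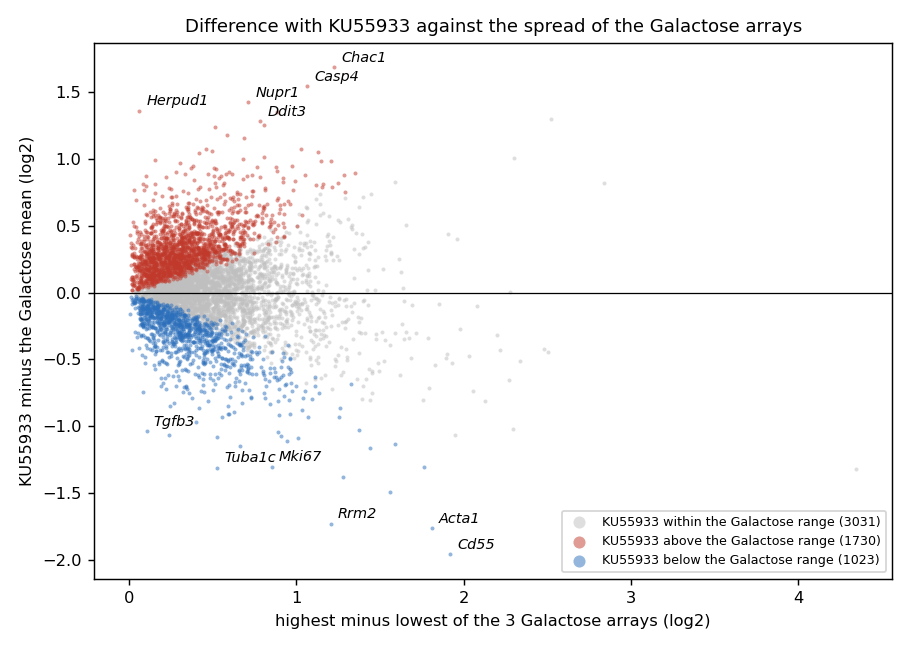
Log2 difference between KU55933 and the Galactose mean (vertical axis) against the highest minus the lowest of the 3 Galactose arrays (horizontal axis, log2), with 1 point per tested probe set. Points are coloured by whether KU55933 lay above (1730), below (1023) or within (3031) the Galactose range, and Herpud1 stands out with a difference of 1.36 where the Galactose arrays were nearly equal.

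Genes of the unfolded protein response and the integrated stress response were among those with the largest gaps above the range. Herpud1, an ER membrane protein of the degradation machinery for misfolded proteins, had the largest gap of all. Its log2 signals were 7.91, 7.85 and 7.89 on the Galactose arrays and 9.25 with KU55933. The gap was 1.33 and the difference from the Galactose mean was 1.36 (95% interval 0.79 to 1.93). The same probe set gave 8.50 in the Control and 7.85 with AZD0156, so KU55933 was the highest of the 6 arrays.

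Promoter sequences of Herpud1 and of 3 other genes of these responses are shown because the factors of both responses bind known short motifs near gene starts. They are RefSeq sequences of the GRCr8 assembly, from 250 bases before to 50 after the start, in the direction of the gene. Hspa5 was chosen after its values were seen, and the 4 are the ones in which a motif was found. The promoter of Ddit3, also searched, held none of the 6 motifs and is not shown. The capitals mark letters of an ER stress element (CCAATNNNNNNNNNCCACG), of its variant ER stress element II (ATTGGNCCACG), which was added to the search after the data were seen, or of the core of the amino acid response element (TTGCATCA), and in Nupr1 they also take in the base that completes an ATF4 composite element (TGATGCAAT, read on the other strand).
Herpud1, chr19:10614658-10614957, minus strand: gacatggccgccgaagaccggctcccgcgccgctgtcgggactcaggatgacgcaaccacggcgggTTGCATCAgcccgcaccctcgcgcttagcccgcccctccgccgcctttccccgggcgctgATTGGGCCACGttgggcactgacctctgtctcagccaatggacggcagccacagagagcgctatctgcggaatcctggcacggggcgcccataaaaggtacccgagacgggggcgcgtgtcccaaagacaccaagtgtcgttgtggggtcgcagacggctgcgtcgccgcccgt
Hspa5, chr3:38452766-38453065, plus strand: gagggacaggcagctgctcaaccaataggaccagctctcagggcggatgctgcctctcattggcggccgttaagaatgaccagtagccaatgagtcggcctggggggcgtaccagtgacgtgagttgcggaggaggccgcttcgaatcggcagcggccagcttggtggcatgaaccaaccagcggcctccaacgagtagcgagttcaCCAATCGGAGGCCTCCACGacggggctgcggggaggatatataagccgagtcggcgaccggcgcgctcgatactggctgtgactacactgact
Chac1, chr3:126795881-126796180, plus strand: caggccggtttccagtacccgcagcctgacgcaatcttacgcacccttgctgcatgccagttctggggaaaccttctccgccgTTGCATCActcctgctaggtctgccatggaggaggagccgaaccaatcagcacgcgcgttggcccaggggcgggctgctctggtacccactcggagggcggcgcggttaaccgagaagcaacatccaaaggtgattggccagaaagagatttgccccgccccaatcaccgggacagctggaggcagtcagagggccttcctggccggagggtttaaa
Nupr1, chr1:190645852-190646151, minus strand: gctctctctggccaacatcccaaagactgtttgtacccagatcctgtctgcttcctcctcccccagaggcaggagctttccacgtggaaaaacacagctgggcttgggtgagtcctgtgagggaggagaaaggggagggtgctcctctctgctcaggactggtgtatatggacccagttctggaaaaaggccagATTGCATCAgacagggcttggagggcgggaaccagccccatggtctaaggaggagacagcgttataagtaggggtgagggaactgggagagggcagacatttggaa

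On both strands, the ER stress element was found in 22 of 33469 RefSeq promoters (0.0657%), the variant II in 17 (0.0508%), the amino acid response core in 266 (0.795%) and the ATF4 composite element, which contains that core, in 63 (0.188%). In Herpud1 the variant II began 124 bases before the start and the amino acid response core 184 before it. The ER stress element of Hspa5 began 43 bases before the start, and the cores in Chac1 and Nupr1 began 167 and 55 bases before it. Of 28 tested genes of ER chaperones and ER-associated degradation, 20 had a promoter entry, and 12 of the 20 lay above the Galactose range. The ER stress element was in 6 of these (Calr, Canx, Dnajc3, Hsp90b1, Hspa5 and Xbp1), of which 3 lay above that range, and the variant II was in 3 (Dnajb11, Herpud1 and Hyou1), of which 2 did. Of 26 tested genes of the integrated stress response, 23 had an entry, and 12 of the 23 lay above the range. The amino acid response core was in 3 (Chac1, Nupr1 and Ppp1r15b), of which 2 lay above the range. The cyclic AMP response element (TGACGTCA), found in 612 promoters (1.83%), was in Ppp1r15a alone. The antioxidant response core (TGACNNNGC), found in 4038 promoters (12.1%), was in 8 of the 23 and in 0 of the 20. No share with a motif is read against its list from so few genes. A match is a run of letters and not a measured binding site.

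Of the 28 ER genes tested, 16 lay above all 3 Galactose arrays, 12 within and 0 below, against 30.0% above and 17.7% below over all genes. Their median difference was 0.26, against 0.04 over all genes. The gap reached 0.5 for 6 of them (1.42% over all genes), and the same number had an unadjusted p under 0.05 with a higher value (2.30%). With the arrays centred, 13 were above and 0 below, and without Galactose replicate 1, 17 were above and 3 below. After Herpud1 the gaps were largest for Edem1, which extracts misfolded glycoproteins for degradation, and Sel1l, the partner of the ER ubiquitin ligase. Edem1 had log2 signals of 4.36, 4.14 and 3.99 in Galactose and 5.09 with KU55933, a difference of 0.93, and it passed the filter only because KU55933 was high. Sel1l had 5.69, 5.50 and 5.63 against 6.33 (difference 0.72, 95% interval 0.23 to 1.22), and Ssr3, a subunit of the translocon-associated complex, had 6.37, 6.29 and 6.43 against 6.98 (difference 0.62, 95% interval 0.08 to 1.15). For all 3 genes the KU55933 value was the highest of the 6 arrays.

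Among the other ER genes, all chosen here after their values were seen, Hspa5, the main ER chaperone (BiP), had log2 signals of 9.37, 9.23 and 9.08 in Galactose and 9.89 with KU55933, a difference of 0.66. The stress sensor Ern1 (IRE1) had 4.50, 4.10 and 4.84 against 5.36, a difference of 0.88. The sensor Atf6 had 6.77, 6.97 and 7.05 against 7.21. The sensors Ern1 and Atf6 thus both lay above the range, while Xbp1, the factor whose RNA is spliced by IRE1, lay within a wide one, with 7.20, 8.62 and 8.62 in Galactose and 7.50 with KU55933. The large chaperones were not uniformly high. Calr had 9.13 with KU55933 within 8.77 to 9.74, P4hb had 8.02 within 7.90 to 8.41 and Hsp90b1 had 7.81 within 7.41 to 7.91.

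Of 26 genes of the integrated stress response, 14 lay above all 3 Galactose arrays, 1 below (Ppp1r15b, by 0.05) and 11 within, or 53.8% above and 3.85% below, against 30.0% and 17.7% over all genes. The median difference was 0.38. The gap above reached 0.5 for 6 (1.42% over all genes), and 6 had an unadjusted p under 0.05 with a higher value (2.30% over all genes). Centring gave 14 above and 2 below, and leaving out Galactose replicate 1 gave 14 and 5. Nupr1, a small stress-induced nuclear protein, had log2 signals of 6.46, 6.26 and 5.74 in Galactose and 7.58 with KU55933, a difference of 1.42 (95% interval 0.66 to 2.18). Ddit3, which encodes the death-promoting factor CHOP, had 9.88, 9.10 and 9.84 against 10.89, a difference of 1.28 (95% interval 0.47 to 2.09). Chac1, a glutathione-degrading enzyme, had 6.93, 5.71 and 5.84 against 7.85, a difference of 1.69 (95% interval 0.56 to 2.81). In each of these genes the Galactose arrays spread by over 0.7, and KU55933 cleared the highest of them by 0.91 or more.

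The amino acid transporter Slc38a2 (SNAT2), which is also induced by hypertonic medium, had log2 signals of 6.08, 6.07 and 6.15 in Galactose and 6.91 with KU55933 (difference 0.81, 95% interval 0.27 to 1.35). Its Control signal was 8.35, well above both. The factor Atf5 (7.90, 7.75 and 7.65 against 8.54) and the pseudokinase Trib3 (5.42, 5.14 and 5.94 against 6.51), named after their values were seen, also cleared the range by over 0.5. Slc7a11, the cystine transporter, cleared it by 0.45 and Eif4ebp1, a repressor of translation, by 0.38. The transcript of Atf4, the factor at the centre of the response, did not follow. It had 10.03, 10.13 and 10.28 in Galactose and 10.08 with KU55933, which was within the range, as were Asns (6.94 within 6.60 to 6.97), Psat1 (7.64 within 7.33 to 8.60) and Ppp1r15a (7.58 within 7.28 to 7.76), all named after their values were seen, as was Ppp1r15b. ATF4 is regulated mainly through its translation, which an array does not measure.

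**Figure D2:**
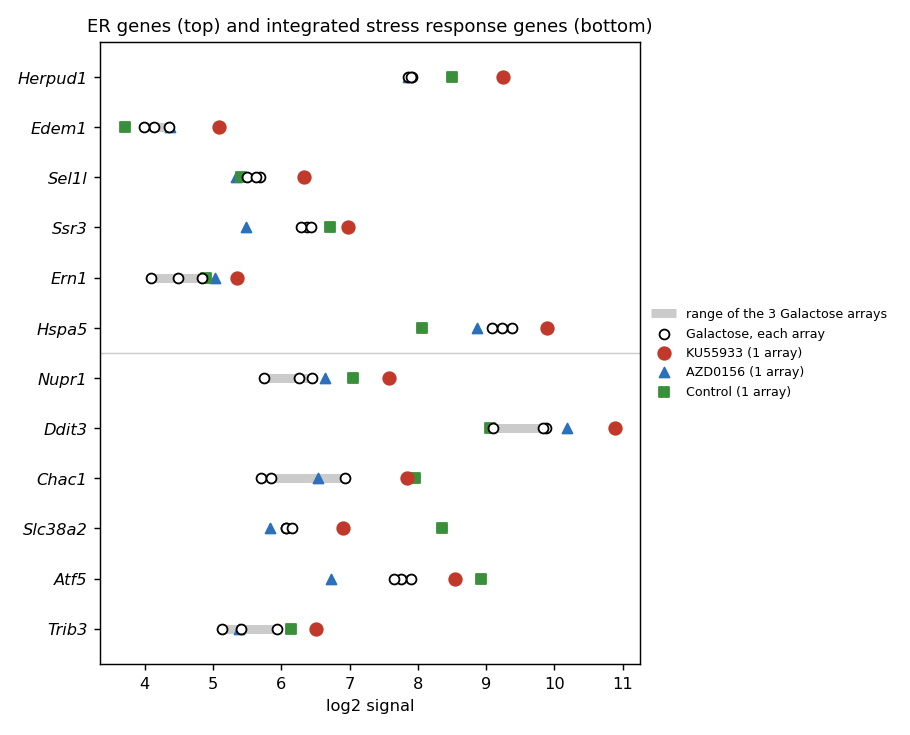
Log2 signal of 6 ER genes (upper block) and 6 integrated stress response genes (lower block) on each of the 6 arrays, with 1 symbol per array and a grey bar for the range of the 3 Galactose arrays. The 12 are the members of both lists with a gap above the range of at least 0.5, so the KU55933 point lies right of the grey bar by choice. Not shown are 12 ER and 11 integrated stress response genes within the range, and 1 of the latter below it. Edem1 passed the filter only through KU55933. For Slc38a2, Chac1 and Atf5 the Control point lies farther right still.

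Aminoacyl-tRNA synthetases, which load amino acids onto tRNAs and include ATF4 targets, had 8 of 18 above the range (44.4%) and 3 below (16.7%). Over all genes the shares were 30.0% and 17.7%. The median difference of the synthetases was 0.15. Eprs1, which loads glutamate and proline, had log2 signals of 7.08, 7.01 and 7.28 in Galactose and 8.02 with KU55933 (difference 0.90, 95% interval 0.29 to 1.51). Nars1 (7.18, 6.78 and 7.25 against 7.67), Aars1 (6.91, 6.51 and 6.50 against 7.27) and Hars1 (6.47, 6.001 and 6.26 against 6.81) cleared the range by 0.34 to 0.42. Vars1, Yars1 and Wars1, named after their values were seen, were those below, by at most 0.18. The share of synthetases below was thus near that of all genes, and 7 of the 18 lay within the range.

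The largest gaps above the range outside these lists belonged to genes of varied function. Trub2, a mitochondrial pseudouridine synthase, had log2 signals of 4.54, 4.10 and 4.61 in Galactose and 5.65 with KU55933. Casp4, an inflammatory caspase, had 5.10, 4.43 and 4.04 against 6.07. Acvr2a, a receptor for activin, had 6.06, 5.64 and 6.02 against 6.95. In these genes KU55933 was the highest of the 6 arrays. Slc46a3 (gap 0.94), a lysosomal transporter, Figla (0.93), a germ-cell factor, Usp12 (0.83), a deubiquitinase, Uprt (0.81), Prrt4 (0.79), Ifi27l2b (0.78), an interferon-induced gene, and Tmem92 (0.77) completed the 15 largest together with Gpnmb. Trub2, Casp4, Slc46a3, Figla, Usp12, Uprt, Prrt4 and Tmem92 were dim, with a Galactose mean under 5. Of all 5478 genes, 86 reached a signal of 5 on the KU55933 array only and 336 on Galactose arrays only. Of the 158 genes chosen by rule, Uprt, Tmem92, Edem1, Birc2, Fzd6, Socs3, Clcn3 and Slc39a7 passed through KU55933 alone, and 16 passed through the Galactose arrays alone, among them Rrm2, Mki67, Angptl4, Aif1l, Col5a1, Nid2, H1f5, Rpa2, Polr1e, Mir3593, Idi1 and Plk3. Each of these was tested only because of the group in which it was high.

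Lysosome and autophagy genes numbered 40, of which 12 lay above the range and 2 below, with a median difference of 0.09. The share above was that of all genes (30.0%), and the share below was 5.0% against 17.7%. Gpnmb, a lysosomal glycoprotein of stressed cells, had log2 signals of 5.66, 5.61 and 5.35 in Galactose, 6.51 with KU55933 (difference 0.97, 95% interval 0.42 to 1.52) and 7.39 with AZD0156. Lamp1, a lysosomal membrane protein, had 7.92, 7.90 and 7.93 against 8.41, and its gap of 0.49 was some way outside very close Galactose values. Gabarapl1, an autophagosome protein, cleared the range by 0.45, and the lysosomal calcium channel Mcoln1 by 0.41. Leaving out Galactose replicate 1 gave 14 lysosome and autophagy genes above and 13 below.

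Immediate early genes, which respond within minutes to stimuli, had 10 of 21 above and 4 below, with a median difference of 0.18. Fos had log2 signals of 6.25, 6.58 and 6.04 in Galactose and 7.14 with KU55933, a difference of 0.85 (95% interval 0.20 to 1.51). Junb (5.31, 5.14 and 4.96 against 5.81) and Klf4 (5.34, 5.14 and 5.20 against 5.82) also cleared the range. Sgk1, a kinase induced by glucocorticoids and cell shrinkage, was the opposite, with 4.47, 4.94 and 4.73 against 3.90. The shares of immediate early genes were 47.6% above and 19.0% below, against 30.0% and 17.7% over all genes.

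Actin genes made up the largest list with a negative median. Of 52 genes of the actin cytoskeleton and focal adhesions, 22 were below all 3 Galactose arrays, 7 above and 23 within, against 17.7% below and 30.0% above over all genes. Their median difference was -0.22, the gap below reached 0.5 for 3 (0.730% over all genes), and 3 had an unadjusted p under 0.05 with a lower value (1.11%). Centring gave 26 below and 5 above, and leaving out Galactose replicate 1 gave 32 and 11. Of the 52, 4 passed the filter only through Galactose arrays. With a mean of at least 5 over the 4 arrays compared, 21 of 49 lay below and 7 above. Acta1, skeletal alpha-actin, had log2 signals of 6.18, 6.63 and 7.995 in Galactose, 5.17 with KU55933 and 4.30 in the Control. Its difference of -1.76 had a 95% interval of -3.23 to -0.29. Acta1 shares most of its sequence with the other actins, so its probes may read more than 1 of them. Tagln (transgelin), an actin-binding protein of contractile cells, had 7.24, 7.98 and 8.51 in Galactose, 6.54 with KU55933 and 5.20 in the Control (difference -1.37, 95% interval -2.47 to -0.28).

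The Galactose arrays were far apart for Acta1 and Tagln and close for Pdlim5, a protein of the actin Z-disc. Pdlim5 had log2 signals of 7.56, 7.60 and 7.41 in Galactose and 6.88 with KU55933 (difference -0.64, 95% interval -1.22 to -0.06). Smaller gaps were seen for Aif1l (5.05, 5.24 and 5.47 against 4.64), the LIM protein Csrp1 (6.82, 7.08 and 7.17 against 6.44), Msn (moesin), which links actin to the membrane (7.58, 8.05 and 8.21 against 7.27), and the cross-linker Actn1 (6.27, 6.66 and 6.81 against 5.98). The KU55933 value of these 5 genes lay between the Galactose range and the Control, which had 5.82 for Pdlim5, 3.74 for Aif1l, 5.32 for Csrp1, 6.60 for Msn and 5.25 for Actn1. For Aif1l, Csrp1, Msn and Actn1 the 95% intervals of the difference included 0 (-1.26 to 0.03, -1.18 to 0.006, -1.42 to 0.08 and -1.24 to 0.04). Vcl (vinculin), a focal adhesion protein, lay 0.13 below a wide range of 6.28 to 7.61. Not every actin gene lay low. Arpc2, a subunit of the actin-nucleating complex, lay above with 10.14 against 9.80 to 9.87, and so did Rdx (radixin) with 7.17 against 6.62 to 6.92, both named after their values were seen.

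Tubulin and stathmin genes split. Of 14 tested, 3 lay below (21.4%), 2 above (14.3%) and 9 within, with a median difference of -0.07. Over all genes 17.7% lay below and 30.0% above. Tuba1c, an alpha-tubulin, had log2 signals of 8.26, 8.79 and 8.61 in Galactose and 7.25 with KU55933, a difference of -1.31 (standard error 0.29). Tubb3, a beta-tubulin best known in neurons, had 6.12, 5.75 and 5.67 against 5.10 (difference -0.74, 95% interval -1.34 to -0.15). Stmn1 (stathmin), which takes microtubules apart, was only 0.05 below the range. Map1b, which binds microtubules, lay 0.45 above it. Tuba1b (7.08 against a Galactose mean of 7.18) and Tubb6 (8.90 against 8.99) differed by at most 0.09 from that mean. Tubb5 (10.21 against 10.54) and Tubb2a (7.61 against 7.77) were further below their Galactose means, but within the range. All of these were named after their values were seen. Some tubulin genes of the same class are near-identical in sequence, and probes may be shared between them.

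**Figure D3:**
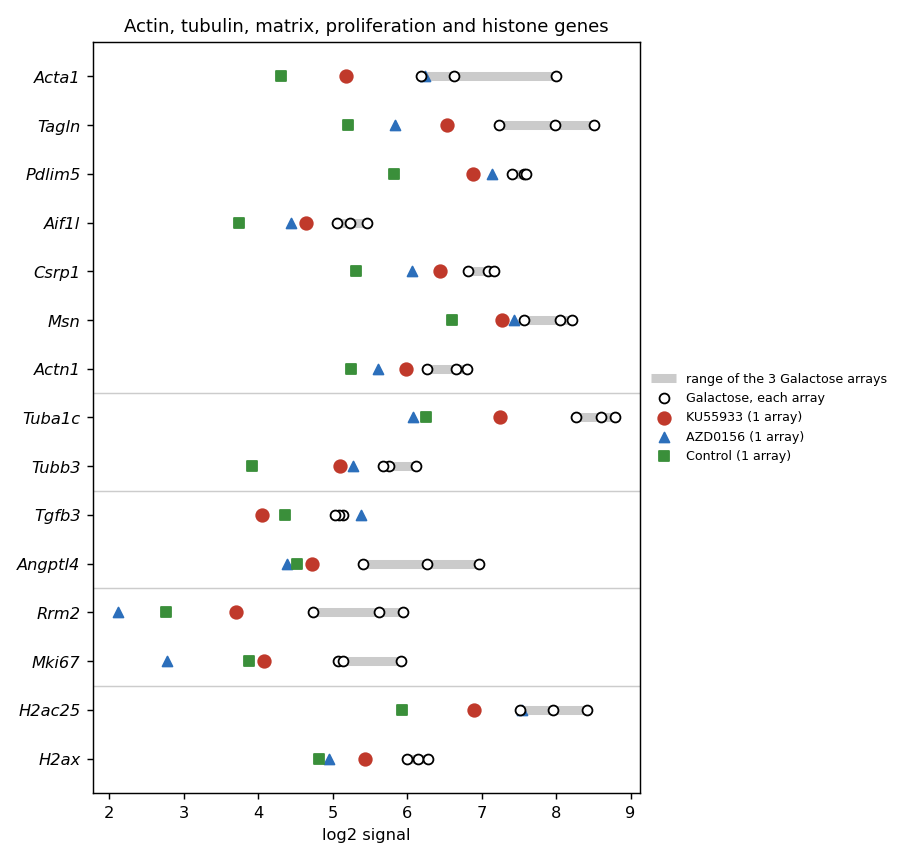
Log2 signal of 15 genes of the actin cytoskeleton, tubulins, matrix and secreted factors, proliferation and histones on each of the 6 arrays, with a grey bar for the range of the 3 Galactose arrays. Only genes with KU55933 below the range are shown, so its point lies to the left of the grey bar for all 15 by choice. Rrm2, Mki67, Angptl4 and Aif1l passed the filter only through Galactose arrays. For all but Tgfb3 the KU55933 point lies between the Control point and that bar.

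Among genes of dividing cells, Rrm2 and Mki67 reached a signal of 5 on Galactose arrays only, so they passed the filter only through the group where they were high. Rrm2, the ribonucleotide reductase subunit made during DNA synthesis, had log2 signals of 4.74, 5.94 and 5.63 in Galactose and 3.71 with KU55933, a difference of -1.73 (95% interval -2.98 to -0.47). Mki67, the proliferation marker Ki-67, had 5.07, 5.14 and 5.92 against 4.07 (difference -1.30, 95% interval -2.27 to -0.33). The signals of Rrm2 and Mki67 were lower still in the Control (2.76 and 3.87) and with AZD0156 (2.12 and 2.77). Of 12 tested cell cycle genes, 4 lay below the range and 3 above, with a median of -0.14. The shares over all genes were 17.7% below and 30.0% above. Of the cell cycle list, 47 genes were linked to a probe set, so most were too dim to test. The cell cycle inhibitor Cdkn1c (p57) was higher, with 6.46, 6.19 and 6.11 in Galactose and 6.89 with KU55933. The cyclin Ccng2, a marker of quiescence, was 0.25 above the range. Those within it were Pcna (7.08 within 6.94 to 7.28), Tyms (5.85 within 5.72 to 6.50), Ccnb2 (5.88 within 5.30 to 6.46), Ccnd2 and Cdk4. The genes within the range were named after their values were seen.

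Of 16 tested histone genes, 7 lay below the range (43.8%) and 1 above (6.25%), against 17.7% and 30.0% over all genes, and the median difference was -0.29. H2ac25 had log2 signals of 7.51, 8.42 and 7.96 in Galactose and 6.89 with KU55933 (difference -1.07, 95% interval -1.94 to -0.19). H2ax, the variant that Atm phosphorylates at broken DNA, had 6.14, 6.28 and 5.99 against 5.44 (difference -0.70, 95% interval -1.22 to -0.19), and 4.82 in the Control. H1f5 and Hist2h2be lay 0.40 and 0.31 below the range, and H1f5 passed the filter only through Galactose arrays. With a mean of at least 5 over the 4 arrays compared, 6 of 15 histone genes lay below and 1 above. Some histone genes of the same class are near-identical in sequence, and their values may be shared.

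DNA damage signalling and repair genes had 7 of 18 below the range (38.9%) and 2 above (11.1%), against 17.7% and 30.0% over all genes, with a median of -0.06. Of the 18, 2 passed the filter only through Galactose arrays, Rpa2 among them. With a mean of at least 5 over the 4 arrays compared, 6 of 16 lay below and 2 above. Beside H2ax, the single-strand binding protein Rpa2 had log2 signals of 4.58, 5.16 and 4.83 in Galactose and 4.15 with KU55933, and Rad23b of excision repair lay 0.25 below the range. Kat5 (Tip60), an acetyltransferase that activates Atm, lay 0.37 above it. The p53 targets gave 3 above, 3 below and 6 within of 12, with a median of -0.13. Gadd45a, a growth arrest gene, had 9.002, 8.92 and 9.16 in Galactose and 9.81 with KU55933 (difference 0.78, 95% interval 0.21 to 1.36). Its relative Gadd45b lay 0.13 below the range and Phlda3 0.24 below. The p53 targets Cdkn1a (p21) and Mdm2, named after their values were seen, were within wide ranges. Cdkn1a had 6.71 with KU55933 within 6.40 to 7.47, and Mdm2 had 7.24 within 6.83 to 8.12. These targets thus showed no common direction.

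Other genes with the largest gaps below the range were Cd55 (decay-accelerating factor), which guards cells against complement, and Tgfb3, a growth factor of the TGF-beta family. Cd55 had log2 signals of 6.11, 7.57 and 5.65 in Galactose and 4.48 with KU55933, a difference of -1.96 with a 95% interval of -3.50 to -0.41. Tgfb3 had 5.14, 5.08 and 5.03 against 4.05, a difference of -1.03 from close Galactose values (95% interval -1.59 to -0.48). Kpna2 (importin alpha), a nuclear import receptor, had 5.999, 6.40 and 6.08 against 5.19. For Cd55, Tgfb3 and Kpna2 the KU55933 value was outside the Galactose range by 0.81 or more. The remaining genes of the 15 largest gaps below were Cdv3l1 (-0.97), Ctps1-ps2 (-0.79), Car5b (-0.73), a mitochondrial carbonic anhydrase, Polr1e (-0.72), a subunit of RNA polymerase I, Kirrel1 (-0.70), a cell adhesion protein, Mir3593 (-0.69), a microRNA gene, and Zfp367 (-0.68), a zinc finger factor. The values of Cdv3l1 and Ctps1-ps2 may include signal of their parent genes, since their symbols mark them as copies.

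Extracellular matrix, capsule and TGF-beta genes lay below the range in 9 of 27 cases (33.3%) and above in 3 (11.1%). Over all genes the shares were 17.7% and 30.0%, and the median difference of the list was -0.32. Of the 27, Angptl4, Col5a1 and Nid2 passed the filter only through Galactose arrays, so their place below the range is not independent of the filter. With a mean of at least 5 over the 4 arrays compared, 6 of 23 lay below and 2 above. Angptl4, a secreted inhibitor of lipoprotein lipase, had log2 signals of 5.40, 6.27 and 6.96 in Galactose and 4.72 with KU55933, a difference of -1.49 (95% interval -2.73 to -0.25). The fibrillar collagen Col5a1 had 4.83, 4.94 and 5.15 against 4.23, and the basement membrane protein Nid2 had 5.84, 4.88 and 5.16 against 4.38. Collagen IV, the main collagen of the lens capsule, was within the range for its tested chains, all named after their values were seen. Col4a1 had 5.87 with KU55933 within 5.75 to 6.84, and Col4a2 had 4.98 within 4.65 to 5.82. Without Galactose replicate 1, which was low for many of these genes, 21 of the 27 lay below, so the place of the matrix genes depended on that array.

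Genes of the study's own primer table, which it had chosen on these same samples, are not independent evidence of direction. Of 29 such genes, 23 were tested, 18 lay below the range, 2 above and 3 within, and the median difference was -0.67. Over all genes 17.7% lay below and 30.0% above. The gap below reached 0.5 for 10 of them, against 0.730% over all genes. Of the 23, 4 passed the filter only through Galactose arrays. Beside those already given, Hspb8, a small heat shock protein, had log2 signals of 6.72, 6.65 and 5.71 in Galactose and 5.27 with KU55933. Tnfrsf12a, the receptor of the cytokine TWEAK, had 7.35, 7.29 and 6.75 against 6.23. The folate carrier Slc25a32 and the sorting nexin Snx15 lay 0.10 and 0.34 below the range. Bcat1 and Eif1a were those above it, by 0.20 and 0.12. The cytokine Lif (4.63 within 4.54 to 5.84), Nqo1 (5.40 within 5.12 to 5.71) and Tmbim1 (6.52 within 6.19 to 6.94) were within it. Acta2, Actg1, Hmgcs1, LOC654482, Tf and Thbs1 were not linked to a single-symbol probe set in the probe table and were not analysed here.

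Galactose, polyol and osmolyte genes showed no shared direction, with 4 of 14 above (28.6%), 3 below (21.4%) and a median of -0.03. These shares were near the 30.0% and 17.7% over all genes. Galt, the transferase that passes galactose into glucose metabolism, had log2 signals of 5.17, 5.37 and 5.24 in Galactose and 4.58 with KU55933 (difference -0.68, 95% interval -1.21 to -0.14). A3galt2, which adds galactose to glycolipids, had 7.35, 7.31 and 7.67 against 6.69 (difference -0.75, 95% interval -1.37 to -0.13). The taurine transporter Slc6a6 had 3.73, 4.03 and 4.50 against 5.02, with 7.22 in the Control and 5.30 with AZD0156. Akr1b1, aldose reductase itself, was 9.11 with KU55933 against 9.18 to 9.67, and Sord, the next enzyme of the polyol pathway, was 4.70 within 4.08 to 4.86. Nfat5, the factor of the response to hypertonic medium, was 4.56 against 4.57 on the highest Galactose array and 6.06 in the Control. The last 3 genes were named after their values were seen.

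Lens fibre genes lay above the range in 13 of 24 cases (54.2%) and below in 0, against 30.0% and 17.7% over all genes, but by small amounts, with a median difference of 0.16 and no gap of 0.5. Lim2 had log2 signals of 11.65, 11.53 and 11.64 in Galactose and 11.90 with KU55933, Mip had 11.05, 10.88 and 10.97 against 11.30, and Lgsn (lengsin) had 11.69, 11.83 and 11.79 against 12.01. For Lim2, Mip and Lgsn the 95% intervals of the difference included 0 (-0.08 to 0.66, -0.08 to 0.74 and -0.12 to 0.59). The calcium exchanger Slc24a2 had 4.09 against 3.43 to 3.93, with 6.12 in the Control. Centring gave 11 above and 1 below, and leaving out Galactose replicate 1 gave 13 and 4. Of 11 crystallins, 4 lay above and 2 below with a median of 0.03, and after centring the counts were 0 and 2. Cryba1 (13.32 against 13.23 to 13.30) and Crygc (12.86 against 12.69 to 12.83) were above by at most 0.03, Cryba2 was 0.03 below and Crygb 0.16 below.

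Lens epithelium genes were spread over both sides, with 8 of 28 above, 7 below and a median of -0.05. Fzd6, a Wnt receptor, had log2 signals of 4.55, 4.75 and 4.81 in Galactose and 5.42 with KU55933. Anxa1 lay 0.36 below the range, and the lens factor Pitx3 0.26 below. Without Galactose replicate 1 the counts were 8 above and 16 below. Ion pumps, channels and junctions gave 8 of 19 above (42.1%) and 2 below (10.5%), against the same 30.0% and 17.7%. Their median was 0.08. Capn3, the lens calpain, had 4.64, 4.64 and 4.02 against 5.15, the chloride exchanger Clcn3 had 4.13, 4.61 and 4.94 against 5.32, and the ER calcium pump Atp2a2 lay 0.33 above the range.

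Heat shock genes and other chaperones gave 7 of 36 above (19.4%) and 8 below (22.2%), against 30.0% and 17.7% over all genes (median -0.07). Hsph1 (Hsp105), a partner of Hsp70, had log2 signals of 4.96, 5.14 and 5.15 in Galactose and 4.39 with KU55933 (difference -0.70, 95% interval -1.25 to -0.15). Bag3, a co-chaperone, had 5.35, 5.61 and 5.39 against 4.83 (difference -0.62, 95% interval -1.15 to -0.09). The mitochondrial chaperone Hspa9 lay 0.39 above the range. Proteasome genes gave 7 of 39 above (17.9%) and 8 below (20.5%), with a median of 0.00. The activator subunits Psme1 and Psme2 lay 0.60 and 0.24 below.

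Metabolic lists differed among themselves, against 30.0% above and 17.7% below over all genes. Sterol and fatty acid synthesis gave 7 of 23 above and 6 below (median 0.05). Srebf1, the factor that drives lipid synthesis, had log2 signals of 4.97, 4.94 and 5.04 in Galactose, 5.78 with KU55933 and 7.04 in the Control (difference 0.80, 95% interval 0.32 to 1.28). Scd2, a desaturase, had 8.51, 8.46 and 8.64 against 9.09, while Idi1 of the sterol pathway lay 0.37 below the range. PPAR targets and fatty acid oxidation gave 6 of 16 above and 2 below (median 0.03), with Acadl 0.38 above and Angptl4 0.68 below. Glycolysis and hypoxia genes gave 2 of 27 above and 3 below (median -0.10), and Pgk1 lay 0.26 below. FOXO targets and insulin signalling gave 9 of 23 above and 2 below (median 0.12), with Foxo3 0.21 above. Respiratory chain genes gave 10 of 67 above and 11 below (median 0.05) and ribosomal proteins 12 of 48 above and 10 below (median 0.04).

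NRF2 and glutathione genes gave 11 of 39 above (28.2%) and 7 below (17.9%), near the 30.0% and 17.7% over all genes, with a median of -0.01. The mitochondrial superoxide dismutase Sod2 had log2 signals of 5.53, 5.43 and 5.48 in Galactose and 5.997 with KU55933 (difference 0.52, 95% interval 0.04 to 0.996), and Gsto1 lay 0.39 above the range. Nfe2l2, the transcript of NRF2, was 7.64 within 7.56 to 8.08. Of 3 aryl hydrocarbon receptor genes tested, 0 lay above and 1 below, namely Arnt by 0.10. Metallothionein and zinc genes gave 4 of 9 above and 3 below (median 0.30). The zinc transporters Slc39a7, Slc39a6 and Slc30a5 were 0.17 to 0.26 above, and Slc30a7 was 0.19 below.

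The remaining lists were small or mixed, against 30.0% above and 17.7% below over all genes. Inflammatory and cytokine genes gave 3 of 17 above and 5 below (median -0.08), with the feedback inhibitor Socs3 0.48 above and the neurotrophic factor Cntf 0.41 below. Interferon response genes gave 3 of 8 above and 1 below (median 0.14). Bcl2 family and apoptosis genes gave 3 of 15 above and 3 below (median 0.00). In that list Birc2, an inhibitor of apoptosis, had log2 signals of 4.95, 4.54 and 4.45 in Galactose and 5.58 with KU55933, and the survival gene Bcl2l1 lay 0.27 below the range. FGF signalling and feedback genes gave 3 of 8 above and 2 below (median 0.02), with Spry1 0.31 below. Cold-inducible and splicing-linked RNA-binding genes gave 6 of 24 above and 7 below (median -0.07), with the kinase Clk1 0.45 above. Alpha-arrestins and sugar-sensing factors gave 1 of 5 above and 0 below (median 0.06). Txnip, the sugar-induced arrestin, was 8.76 within 8.43 to 9.92.

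**Figure D4:**
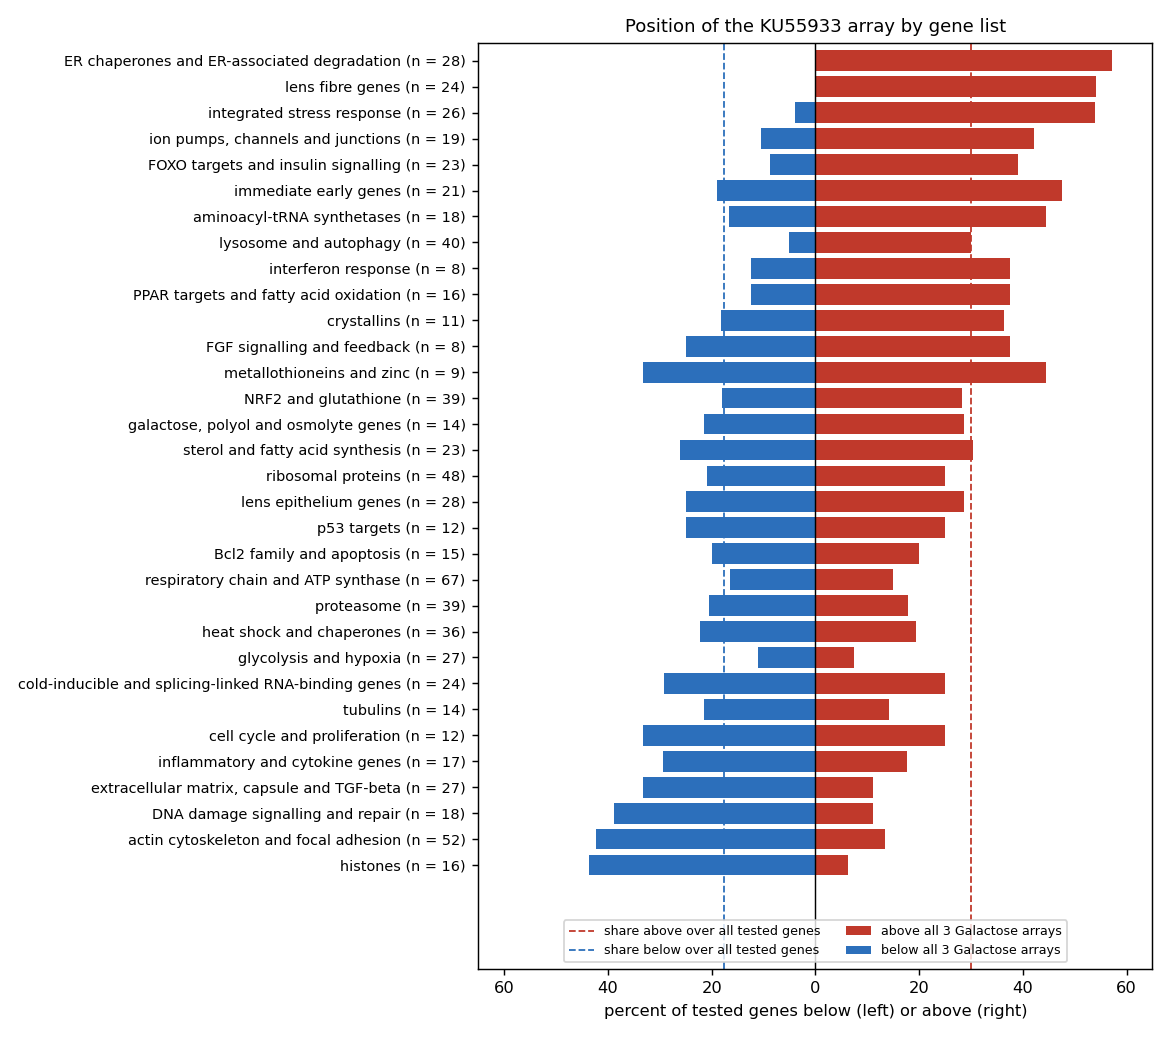
Percent of the tested genes of each list with KU55933 above (bars to the right) or below (bars to the left) all 3 Galactose arrays. Lists with at least 8 tested genes are ordered by the difference of the shares. The genes of the study's primer table, chosen on these same samples, are left out. Dashed lines mark the shares over all 5478 genes, 30.0% above and 17.7% below. ER genes, lens fibre genes and the integrated stress response stand at the top with 16 of 28, 13 of 24 and 14 of 26 above, and histones and actin genes at the bottom with 7 of 16 and 22 of 52 below.

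Values with the other inhibitor stand beside these, and since both inhibitors are set against the same 3 Galactose arrays, likeness between them is not counted as a result. With AZD0156 the log2 difference from the Galactose mean was -0.03 for Herpud1, 0.49 for Nupr1, 0.57 for Ddit3 and 0.38 for Chac1, against 1.36, 1.42, 1.28 and 1.69 with KU55933. For Acta1, Tagln, Tuba1c and Rrm2 it was -0.70, -2.08, -2.47 and -3.32 with AZD0156, against -1.76, -1.37, -1.31 and -1.73 with KU55933. With 1 array for each inhibitor, the spread of either is unknown.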

How the data were processed

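Lens RNA was hybridised to GeneChip Rat Gene 2.0 ST arrays. The authors deposited log2 signals per probe set, obtained in R with the Robust Multi-array Average algorithm from all 6 arrays together, by a package not given in the sources used here. Values were used as deposited. Quantile normalization, a step of that algorithm, acts on probe intensities before they are summarised per probe set. The deposited values still differed in level, with medians over all probe sets from 2.96 (Control) to 3.11 (AZD0156). Gene symbols came from the platform's probe table, and 18394 single-symbol probe sets matched RefSeq by gene number.

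As in the methods, probe sets without a gene or under 5 on all 6 arrays were left out. KU55933 (1 array) was placed against the lowest and highest of the 3 Galactose arrays. limma 3.58.1 in R 4.3.3 fitted 4 group means to 6 arrays (trend, 2 residual degrees of freedom, Benjamini-Hochberg over 5784 probe sets, threshold 0.05) and was tested on simulated data. The number of arrays limits the precision. Tables, promoter searches and figures used Python 3.11.15, numpy 2.4.6, pandas 2.3.3 and matplotlib 3.10.9.

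The comparison and the 40 gene lists were chosen with earlier results of these data known. Named genes are the 15 with the largest gap above and the 15 below, the 10 with the lowest limma p, up to 4 per list with the largest gap or difference, those of the study's primer table, Atm and Plk3. Alternatives were centring, 3 other filters, 1 probe set per gene, other limma settings, the Galactose median and leaving out each Galactose array.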

Additional observations from a re-analysis of the deposited data

How the results depend on the processing

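Of the 158 named genes, 158 kept the sign of their difference when arrays were centred, and 157 when the median of the Galactose arrays replaced the mean. The exception was the log2 difference of Tmbim1, at 0.0754. With centring 153 kept their position against the range, Grb2, Crygc and Cryba1 moved from above to within it, and Arrdc2 and Nfe2l2 from within to below. Without Galactose replicate 3, 158 kept the sign, and without replicate 2, 155. Leaving out single Galactose arrays turned the sign of 4 differences, which ranged from -0.253 to 0.0425 for Nqo1 and from -0.246 to 0.0164 for Nfe2l2 (positive without replicate 2), from -0.0330 (without replicate 2) to 0.230 for Des, and from -0.169 to 0.203 (without replicate 1) for Tmbim1. Without replicate 1, 64 of the 158 passed limma. Leaving out 1 Galactose array narrows the range by construction and gave 2075 to 2348 probe sets above it, 1233 to 2089 below, 106 to 293 at least 0.5 above, 59 to 282 at least 0.5 below, and 0 to 218 higher and 0 to 221 lower limma calls. The highest values, apart from 2348 (without replicate 3), were without replicate 1. Without replicate 3, 157 lay at least 0.5 above and 74 below. With no filter on low values (19086 probe sets), 4899 were above, 4573 below, 266 at least 0.5 above and 259 at least 0.5 below. With a mean of at least 5 over the 4 arrays, 49 of 4695 were at least 0.5 above. limma made 0 calls in each direction under centring, the other filters, 1 probe set per gene, no trend, robust moderation and a fit of the 4 arrays alone. The cause of these differences was not tested. No paired analysis was possible because KU55933 has 1 array, and its label does not tie it to any Galactose array.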
